A study of Mus musculus with 11 samples.

Results

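The 10 loci described here belong to the R-spondin arm of Wnt signaling and its feedback genes in the mouse esophagus: the receptors Lgr4, Lgr5 and Lgr6, the ligand Rspo1, the ubiquitin ligases Znrf3 and Rnf43, the feedback genes Axin2 and Nkd1, the secreted inhibitor Wif1 and the transcription factor Lef1. Open chromatin was mapped by ATAC-seq, in which a transposase cuts accessible DNA, and the authors called a list of open intervals for each of 11 libraries. The intervals of all lists on chromosomes 1 to 19 and X were merged where they shared at least 1 bp, and a region was assigned to a locus where its midpoint lay nearest to that protein-coding gene body, within 100 kb. Of 124941 merged regions, 149 belonged to the family, and 10 of the 10 genes had regions, Rspo1 the fewest with 4 and Znrf3 the most with 28. A region counted as open in a library where that library's list held an interval in it.

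The libraries came from sorted cells of the esophagus in 4 groups. SmoM2-Sox9cKO (3 libraries) had the genotype Krt5-SmoM2-Sox9fl/fl and SmoM2 (3 libraries) the genotype Krt5-SmoM2, both sorted for high EpCAM, an epithelial adhesion protein. SmoM2 is a Smoothened that is always active and keeps the Hedgehog pathway on. The genotype name ties it to Krt5, a basal-layer keratin, and which of the sorted cells expressed it was not measured here. Embryo (2 libraries) was Krt8YFP esophagus of embryonic day 13 sorted on YFP, and WT (3 libraries) was wild type sorted for low EpCAM. The design sets SmoM2 against WT for the transgene, and SmoM2-Sox9cKO against SmoM2 for the added Sox9fl/fl allele. The strain CD1 was labelled for SmoM2 and WT, and no strain was labelled for SmoM2-Sox9cKO or Embryo. A strain difference, if any, therefore cannot be told apart from the Sox9fl/fl allele in SmoM2-Sox9cKO against SmoM2. No label states the ages of the non-embryonic mice or that libraries of a group came from separate animals. A p-value here therefore rests on the variation among these libraries alone, which may be technical. In SmoM2 and SmoM2-Sox9cKO against WT, the genotype and the EpCAM gate cannot be told apart, and in sorted cells in bulk a region open in fewer cells and a region less open in each cell cannot be told apart.

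R-spondins bind Lgr receptors and, with them, remove Znrf3 and Rnf43 from the cell surface; these ligases otherwise clear Frizzled receptors, so R-spondins make cells more sensitive to Wnt ligands. Beta-catenin then enters the nucleus and activates genes through TCF and LEF factors, and several of its common targets (Axin2, Nkd1, Znrf3, Rnf43 and Lgr5) act on the pathway itself. Lgr5 marks stem cells of the intestine and the hair follicle, Lgr6 marks cells of the skin, and Lef1 is prominent in hair placodes.

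The lists of the 9 non-embryonic libraries held 69026 to 87910 merged intervals and those of Embryo 24902 and 14255; read depth is unknown. The basal keratin loci were open in all 9 non-embryonic libraries, with 2 to 4 regions at Krt5 and 4 to 6 at Krt14. The Sox9 locus had 10, 12 and 9 open regions in SmoM2-Sox9cKO and 9, 10 and 11 in SmoM2, against 11, 7 and 9 in WT; intervals at the locus do not show whether a floxed exon was removed. SmoM2-Sox9cKO 3 had no interval at the 4 Y-linked genes examined, whereas SmoM2-Sox9cKO 1 and 2 had 8 and 10, SmoM2 had 9 in each library, and WT had 5, 0 and 0.

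The promoters below are shown because a region called in some libraries and not in others overlapped the annotated start (Lef1, Wif1, Rspo1 and Lgr6), or, chosen after its values were seen, because the start was open in all 11 libraries (Axin2). Each line gives the 250 bases before a start in RefSeq's table for GRCm38.p6, 5′ to 3′ on the gene's strand, with CG dinucleotides in capitals.
Lef1: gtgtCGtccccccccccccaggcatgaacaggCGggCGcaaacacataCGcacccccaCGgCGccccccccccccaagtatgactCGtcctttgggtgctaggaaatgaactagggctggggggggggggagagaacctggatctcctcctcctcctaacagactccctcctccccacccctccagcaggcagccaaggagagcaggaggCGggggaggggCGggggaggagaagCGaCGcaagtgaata
Wif1: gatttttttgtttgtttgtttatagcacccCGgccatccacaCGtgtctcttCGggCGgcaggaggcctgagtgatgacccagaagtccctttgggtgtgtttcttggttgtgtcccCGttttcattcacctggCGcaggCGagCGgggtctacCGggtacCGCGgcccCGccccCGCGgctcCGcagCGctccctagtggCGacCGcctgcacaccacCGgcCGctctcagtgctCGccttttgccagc
Rspo1: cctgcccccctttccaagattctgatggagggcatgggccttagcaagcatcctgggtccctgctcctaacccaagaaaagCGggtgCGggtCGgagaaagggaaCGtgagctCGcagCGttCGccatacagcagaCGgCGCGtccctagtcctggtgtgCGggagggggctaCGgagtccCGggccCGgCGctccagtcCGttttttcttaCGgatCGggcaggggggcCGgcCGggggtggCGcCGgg
Lgr6: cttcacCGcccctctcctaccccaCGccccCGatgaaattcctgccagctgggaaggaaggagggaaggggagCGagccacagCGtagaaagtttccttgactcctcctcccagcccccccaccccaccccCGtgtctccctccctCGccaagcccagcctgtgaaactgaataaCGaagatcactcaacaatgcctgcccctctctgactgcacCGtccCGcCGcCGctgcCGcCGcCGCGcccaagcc
Axin2: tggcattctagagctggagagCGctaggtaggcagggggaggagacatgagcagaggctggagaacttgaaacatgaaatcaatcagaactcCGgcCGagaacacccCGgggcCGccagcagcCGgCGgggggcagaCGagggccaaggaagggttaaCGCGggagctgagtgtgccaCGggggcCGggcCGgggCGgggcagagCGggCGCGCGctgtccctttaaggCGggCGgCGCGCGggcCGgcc
The Lef1 window (chr3:131110047-131110296, plus strand) lay in a region called in 3 of 3 SmoM2-Sox9cKO and 3 of 3 SmoM2 libraries, against 1 of 3 WT libraries, and in 0 of 2 Embryo libraries. The windows of Wif1 (chr10:121033754-121034003, plus strand), Rspo1 (chr4:124986180-124986429, plus strand) and Lgr6 (chr1:135105277-135105526, minus strand) were open in all 9 non-embryonic libraries and in 1, 0 and 0 of the 2 Embryo libraries. The Axin2 window (chr11:108920099-108920348, plus strand) was open in every library. These windows held 11 (Lef1), 21 (Wif1), 22 (Rspo1), 16 (Lgr6) and 24 (Axin2) CG dinucleotides. The 12 promoter windows of the 8 members in the table were searched on both strands for a TCF/LEF motif (CTTTGAA or CTTTGAT), a GLI motif (GACCACCCA) and a SOX motif (ACAATGG or ACAATAG), of which none contains another. None of these letters occurred in the 12 windows, and 7.48%, 0.225% and 5.03% of 32851 promoter windows of the same length held the TCF/LEF, GLI and SOX motifs.

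More of the family's regions were open in SmoM2 than in WT, and the extra ones lay mostly at Wif1, Lgr5, Znrf3 and Axin2. Of the 149 regions, 106, 101 and 81 were open in SmoM2-Sox9cKO 1, 2 and 3 and 102, 97 and 110 in SmoM2 1, 2 and 3, against 64, 70 and 68 in WT 1, 2 and 3. Each library of SmoM2 and SmoM2-Sox9cKO stood above each WT library, and SmoM2-Sox9cKO 3 was the lowest of the 6. The share of family regions open was 65.1 to 73.8% in SmoM2, against 43.0 to 47.0% in WT, while over all regions it was 59.0 to 68.3% in SmoM2, against 53.4 to 60.6% in WT. In SmoM2-Sox9cKO the share of family regions was 54.4 to 71.1%, and over all regions 57.5 to 64.5%. The members were chosen with earlier results of these data known, so these shares describe the family and do not test it.

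**Figure D1:**
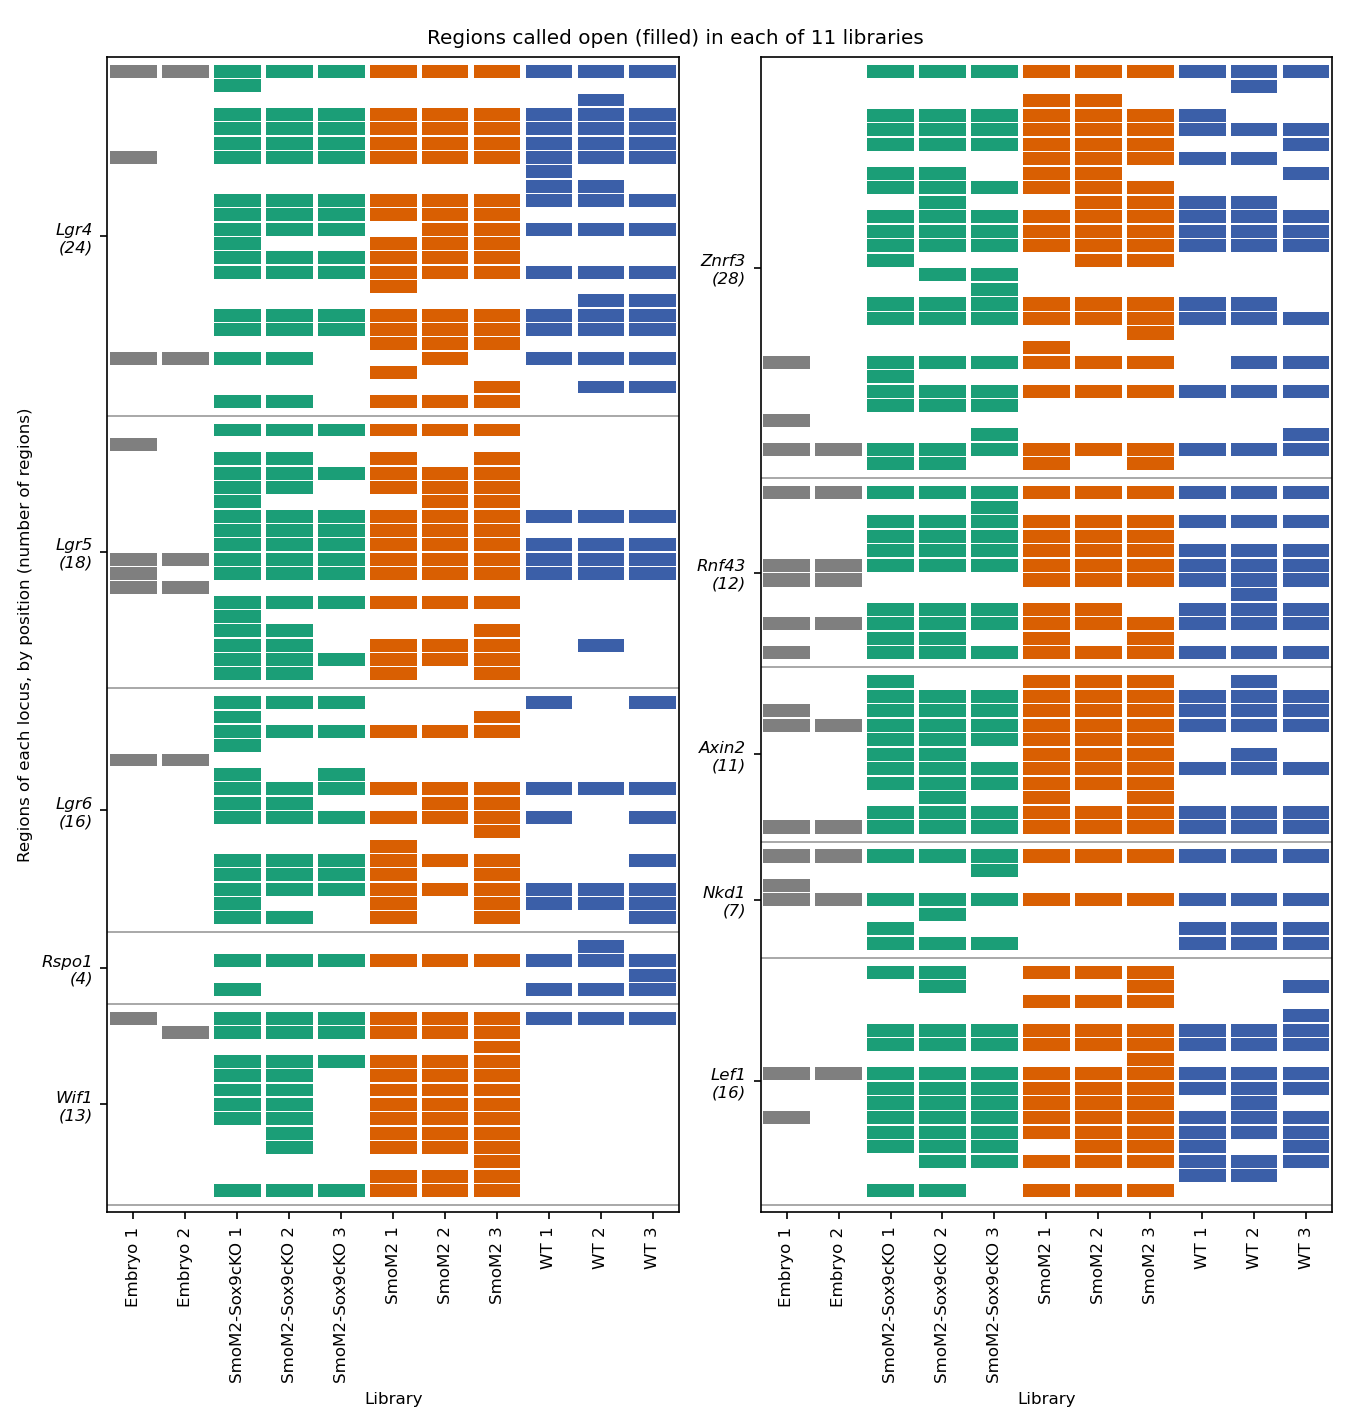
Open regions of the 10 loci. Each row is 1 of 149 regions, ordered by position within its locus (number of regions in brackets), each column is a library, and a filled cell is a region called open there. At Wif1 the WT columns are filled in 1 row, while SmoM2 fills 11 to 13 rows.

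Loci were compared on the number of open regions, as log2 of that number plus 0.5 per 100000 of the library's open regions, with limma across 15326 loci. For SmoM2 against WT, 4 of the 10 members had more open regions (Wif1, Lgr5, Axin2 and Znrf3) and 2 had fewer (Nkd1 and Rspo1), while Lgr4, Lgr6, Rnf43 and Lef1 did not pass an adjusted p of 0.05. Over all loci 5.3% were called higher and 5.92% lower in this comparison. As the choice of members drew on earlier results of these data, this is no test of the family as a set. The median log2 change was 0.33 over the 10 members and -0.12 over all loci; without scaling by the library's total the median over all loci was 0 and the split of calls moved to 769 higher and 343 lower, against 812 higher and 907 lower with it, and the same 6 members were called. The value counts open regions at a locus and measures neither the strength of a region nor expression. Where a group's 3 libraries have equal counts, as at Nkd1, their variation comes from the library totals alone and p can be small.

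**Figure D2:**
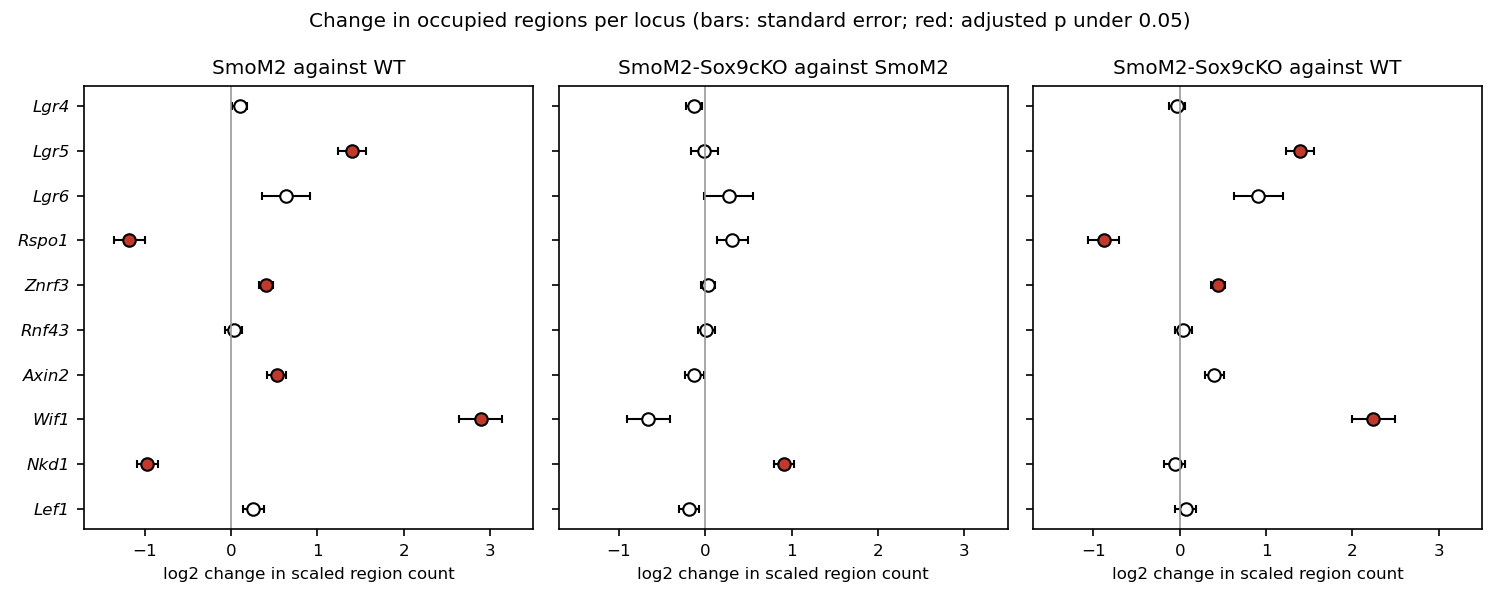
Log2 change in the scaled number of open regions for each member in the 3 comparisons (limma). Points are estimates, bars are standard errors, and filled red points have an adjusted p under 0.05; Wif1 and Lgr5 lie far to the right of 0 in both comparisons with WT (2.89 and 1.40 in SmoM2 against WT), and Nkd1 is the only red point in SmoM2-Sox9cKO against SmoM2.

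Among the receptors, Lgr5 had about 3 times as many open regions in either SmoM2 group as in WT. Its locus (gene body chr10:115450314-115587780, GRCm38) had 16, 14 and 9 open regions in SmoM2-Sox9cKO and 13, 12 and 15 in SmoM2, against 4, 5 and 4 in WT. The groups did not overlap with WT, and the 4 regions open in all WT libraries were open in every library of both SmoM2 groups as well. The log2 change was 1.40 (SE 0.16, limma adjusted p = 0.0012) for SmoM2 against WT, 1.39 (SE 0.16, limma adjusted p = 0.0015) for SmoM2-Sox9cKO against WT and -0.01 (SE 0.16, limma adjusted p = 0.976) for SmoM2-Sox9cKO against SmoM2. Both calls held under each of 21 alternatives, with the change between 1.14 and 1.52 for SmoM2 against WT. Without SmoM2-Sox9cKO 3, the library with 9 regions, the change against SmoM2 was 0.19 (limma adjusted p = 0.734).

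At Lgr5, 6 regions were open in 3 of 3 SmoM2 and 0 of 3 WT libraries. The one with the highest rank of the authors' -log10 p, chr10:115483902-115484962 inside the gene body, stood at percentiles 80.0, 85.4 and 67.9 of the lists of SmoM2-Sox9cKO 1, 2 and 3 and at 84.7, 92.2 and 86.4 of those of SmoM2 1, 2 and 3. Another, chr10:115593053-115593986, lay 5273 bp beyond the higher-coordinate end of the gene and stood at percentiles 52.6 to 58.9 in SmoM2-Sox9cKO and 66.6 to 74.2 in SmoM2. Of the 6, 5 were open in 3 of 3 SmoM2-Sox9cKO libraries and the other, chr10:115546217-115546594, in 2 of 3. The region over the higher-coordinate gene end, chr10:115585877-115588095, was open in all 9 non-embryonic libraries and Embryo 1, at percentiles 60.2 to 72.2 in SmoM2-Sox9cKO and 65.3 to 86.4 in SmoM2, and 25.9 to 42.3 in WT. Lists differ in length, so percentiles describe a region's place in its own list. Here and below they are set side by side as description, and no change was called from them.

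Lgr4 and Lgr6 did not pass the test in any comparison. Lgr4, the broadly expressed receptor of the family, had 16, 14 and 12 open regions in SmoM2-Sox9cKO and 16 in each SmoM2 library, against 13, 15 and 13 in WT. Its log2 change was 0.10 (SE 0.09, limma adjusted p = 0.466) for SmoM2 against WT. The SmoM2 and WT counts did not overlap before scaling by the library's total, but the scaled values behind this change did. Of its 24 regions, 9 were open in all 9 non-embryonic libraries. The log2 change for SmoM2 against WT was 0.044 without WT 3, 0.054 without SmoM2 2 and 0.158 without SmoM2 3, and was not called in any of these fits. The start region of Lgr4, chr2:109917176-109918432, was open in all 11 libraries. Even so, 5 regions inside its gene body were open in 3 of 3 SmoM2 and 0 of 3 WT libraries. Of these, chr2:109965869-109966567 was also open in 3 of 3 SmoM2-Sox9cKO libraries. In contrast, chr2:109987696-109988114 was open in no SmoM2-Sox9cKO library, and stood low in the SmoM2 lists (percentiles 11.9, 4.1 and 17.0).

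Lgr6 had 13, 9 and 8 open regions in SmoM2-Sox9cKO and 9, 6 and 11 in SmoM2, against 5, 3 and 7 in WT. The SmoM2 and WT ranges overlapped at 6 to 7 regions, and SmoM2-Sox9cKO lay above WT without overlap. The log2 change was 0.64 (SE 0.28, limma adjusted p = 0.201) for SmoM2 against WT and 0.91 (SE 0.28, limma adjusted p = 0.0915) for SmoM2-Sox9cKO against WT. SmoM2-Sox9cKO against WT was called under 4 of 21 alternatives (lowest limma adjusted p = 0.00722), and SmoM2 against WT under 1, with covered base pairs in place of region counts (limma adjusted p = 0.0372). Without WT 2, the library with 3 regions, the changes were 0.32 for SmoM2 against WT and 0.58 for SmoM2-Sox9cKO against WT (limma adjusted p = 0.349 and 0.181). Inside the Lgr6 gene body, chr1:135013571-135014543 was open in 3 of 3 libraries of each SmoM2 group and in 0 of 3 WT libraries, and chr1:134987428-134988096 was open in 3 of 3 SmoM2-Sox9cKO, 0 of 3 SmoM2 and 2 of 3 WT libraries.

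Rspo1, the 1 ligand among the members, had fewer open regions in SmoM2 than in WT. It had 2, 1 and 1 open regions in SmoM2-Sox9cKO and 1 in each SmoM2 library, against 2, 3 and 3 in WT. The start region, chr4:124986118-124987022, was open in all 9 non-embryonic libraries, so the difference lay outside it. A region 7119 bp beyond the far end of the gene, chr4:125016221-125018002, was open in 1 of 3 SmoM2-Sox9cKO and 0 of 3 SmoM2 libraries, against 3 of 3 WT libraries, at percentiles 38.1 to 50.3. The remaining WT counts came from intervals low in a single list, chr4:124983754-124984006 in WT 2 (percentile 7.0) and chr4:124990381-124990624 in WT 3 (percentile 0.6). The log2 change of Rspo1 was -1.18 (SE 0.18, limma adjusted p = 0.00429) for SmoM2 against WT and -0.88 (SE 0.18, limma adjusted p = 0.0213) for SmoM2-Sox9cKO against WT. The locus could not be tested with intervals of -log10 q of at least 5. With lists of equal length neither was called (limma adjusted p = 0.174 and 0.204), and the second call was also lost without scaling (0.12) and without any of SmoM2-Sox9cKO 2, SmoM2-Sox9cKO 3, WT 2 or WT 3 (limma adjusted p = 0.076, 0.065, 0.0621 and 0.0655).

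Of the 2 ubiquitin ligases, Znrf3 had more open regions in both SmoM2 groups and Rnf43 did not pass the test. Znrf3 had 18, 18 and 17 open regions in SmoM2-Sox9cKO and 18 in each SmoM2 library, against 12, 13 and 12 in WT, with no overlap. Its log2 change was 0.41 (SE 0.08, limma adjusted p = 0.0121) for SmoM2 against WT and 0.44 (SE 0.08, limma adjusted p = 0.0103) for SmoM2-Sox9cKO against WT. The SmoM2 call was lost with intervals of -log10 q of at least 5, with lists of equal length and with a covariate for Y-linked intervals (limma adjusted p = 0.0753, 0.0539 and 0.0782), and the SmoM2-Sox9cKO call with lists of equal length (0.0526).

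Of the 28 Znrf3 regions, 8 were open in all 9 non-embryonic libraries and 1, chr11:5346468-5347664 inside the gene, was open in 3 of 3 libraries of each SmoM2 group and in 0 of 3 WT libraries. Its region over the higher-coordinate gene end, chr11:5443333-5446237, was open in all 11 libraries. SmoM2-Sox9cKO differed from SmoM2 at 2 regions inside the gene: chr11:5317928-5318975 was open in 0 of 3 SmoM2-Sox9cKO libraries, against 3 of 3 SmoM2 libraries, and in 2 of 3 WT libraries, and chr11:5427786-5428375 was open in 3 of 3 SmoM2-Sox9cKO, 0 of 3 SmoM2 and 0 of 3 WT libraries.

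Rnf43 had 9 open regions in each SmoM2-Sox9cKO library and 10, 9 and 9 in SmoM2, against 8, 9 and 8 in WT, and its log2 change in SmoM2 against WT was 0.03 (SE 0.10, limma adjusted p = 0.817). Of its 12 regions 6 were open in all 9 non-embryonic libraries and 3 in all 11, the start region chr11:87662247-87663493 among them. Inside the gene, chr11:87680557-87681106 was open in 3 of 3 libraries of each SmoM2 group and in 0 of 3 WT libraries. Its percentiles were 53.4, 55.8 and 47.7 in SmoM2-Sox9cKO and 40.1, 18.0 and 50.5 in SmoM2. Another region that differed, chr11:87696956-87697819, lay 33869 bp inside the gene. It was open in 0 of 3 SmoM2-Sox9cKO libraries, in 3 of 3 SmoM2 libraries at percentiles 14.9, 2.9 and 35.3, in 3 of 3 WT libraries at percentiles 82.7, 72.6 and 66.5, and in 2 of 2 Embryo libraries at percentiles 60.6 and 8.8. It was the 1 region of the family open in all WT libraries and in no SmoM2-Sox9cKO library.

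**Figure D3:**
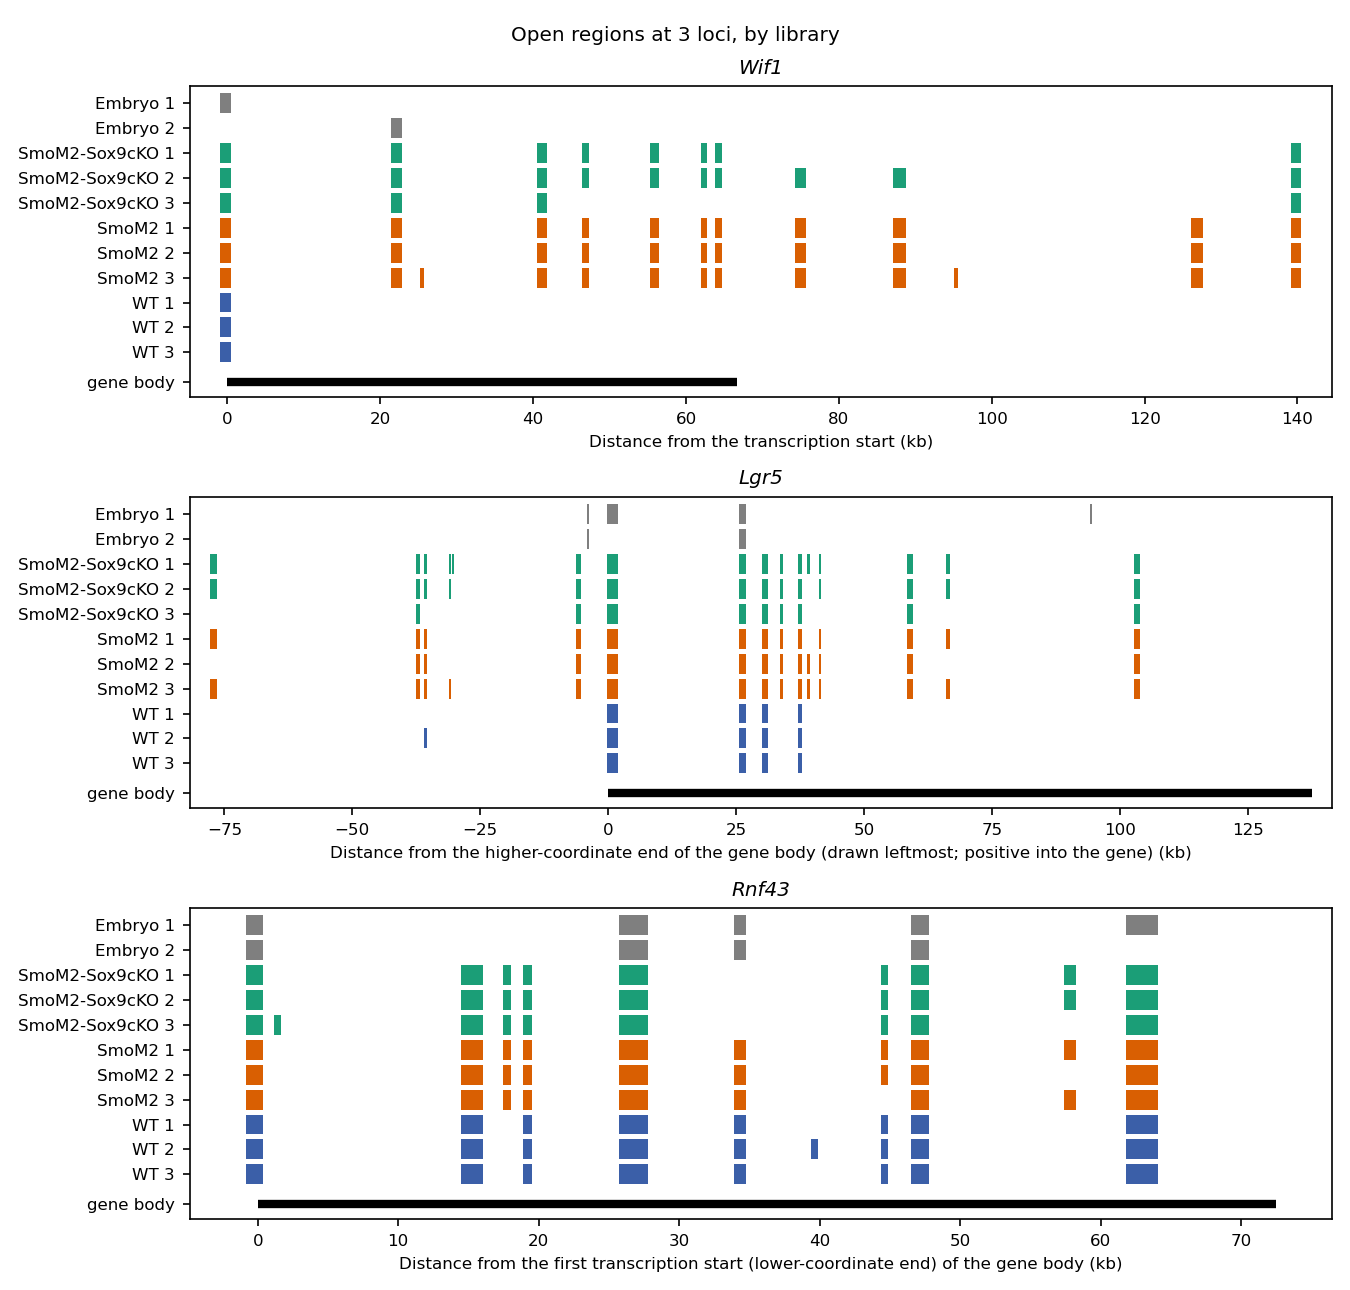
Open regions along Wif1, Lgr5 and Rnf43 in each library. Filled boxes are open regions, the black bar is the gene body, and the axis is the distance in kb from a gene end (for Wif1 and Rnf43 the annotated start; for Lgr5 the end with the higher coordinate). WT has only the start region at Wif1, and at Rnf43 the box near 34 kb is filled in Embryo, SmoM2 and WT but not in SmoM2-Sox9cKO.

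Wif1, which encodes a secreted protein that binds Wnt ligands, had the largest change of the 10 members. It had 8, 10 and 4 open regions in SmoM2-Sox9cKO and 11, 11 and 13 in SmoM2, against 1 in each WT library. The single WT region was the start region, chr10:121033065-121034491, which was open in all 9 non-embryonic libraries and in Embryo 1, at percentiles 65.2 to 79.0 in SmoM2-Sox9cKO and 77.1 to 85.4 in SmoM2, and 65.8 to 76.1 in WT. The log2 change was 2.89 (SE 0.25, limma adjusted p = 0.000234) for SmoM2 against WT and 2.24 (SE 0.25, limma adjusted p = 0.00137) for SmoM2-Sox9cKO against WT. The first held under each of 21 alternatives (2.43 to 3.13); the second was lost with intervals of -log10 q of at least 5 (1.27, limma adjusted p = 0.116).

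SmoM2-Sox9cKO lay below SmoM2 at Wif1 without overlap, but the change of -0.66 (SE 0.25, limma adjusted p = 0.348) did not pass the test. Without SmoM2-Sox9cKO 3, the library with 4 regions, it was -0.33 (limma adjusted p = 0.62), and measured as covered base pairs it was -1.73 and called (limma adjusted p = 0.0124). Of the 13 Wif1 regions, 10 were open in 3 of 3 SmoM2 and 0 of 3 WT libraries, 6 of them inside the gene and 4 beyond its far end, with a median width of 1330 bp. Of these 10, 3 were open in 3 of 3 SmoM2-Sox9cKO libraries, 4 in 2, 2 in 1 and 1 in none. The 3 open in every SmoM2-Sox9cKO library were chr10:121055381-121056791, chr10:121074523-121075876 and chr10:121173216-121174521, and the 1 open in no SmoM2-Sox9cKO library was chr10:121160086-121161631, which lay 59444 bp beyond the gene's far end at percentiles 53.5 to 58.3 in SmoM2.

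**Figure D4:**
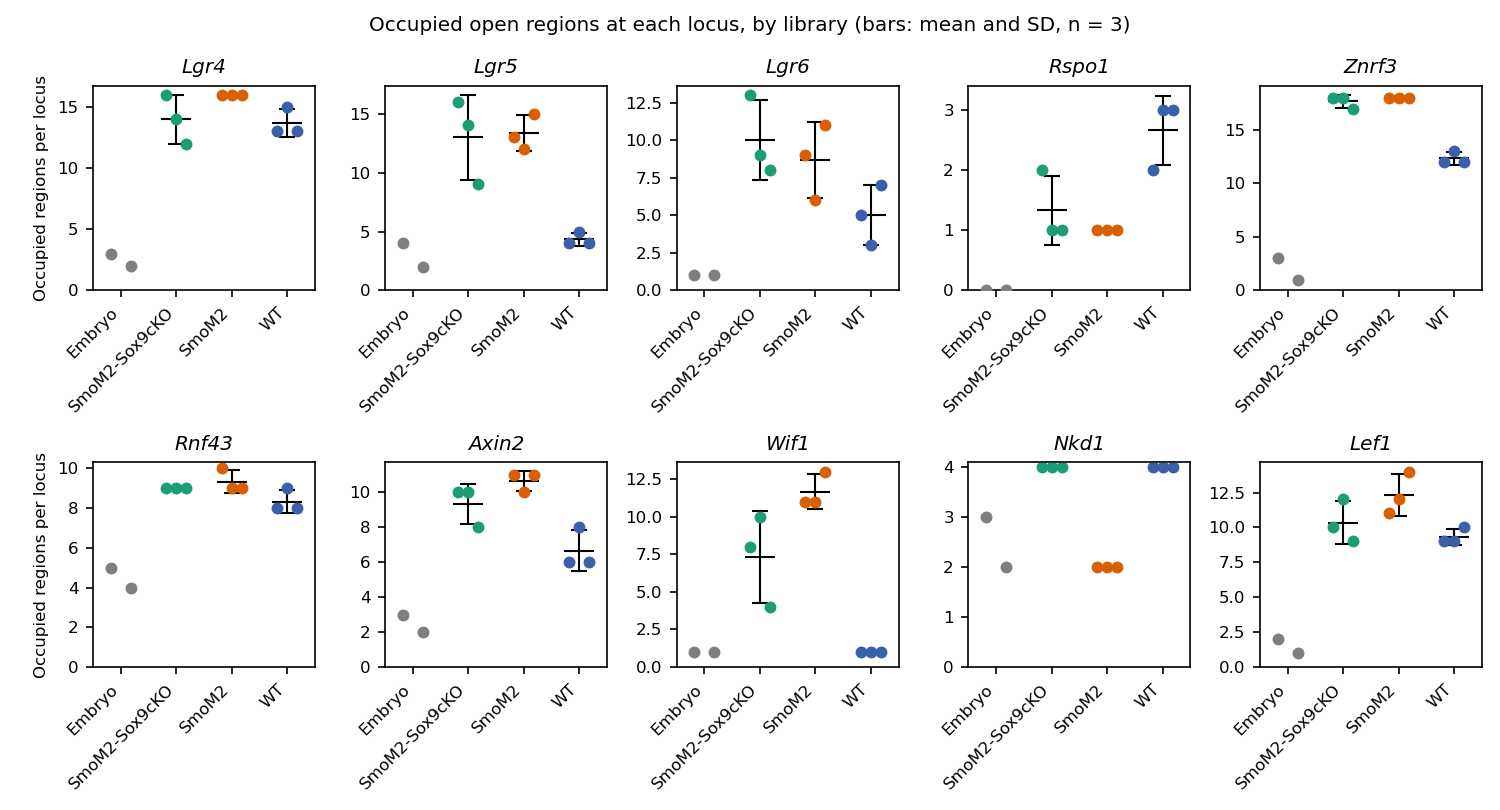
Number of open regions at each of the 10 loci in every library. Points are libraries, and horizontal bars with whiskers are the mean and SD of the 3 libraries of a group (none for Embryo, with 2 libraries). At Lgr5, Znrf3 and Wif1 the SmoM2-Sox9cKO and SmoM2 points lie above the WT points, and at Nkd1 the SmoM2 points lie below both other non-embryonic groups, at 2 regions.

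Axin2 and Nkd1, feedback inhibitors induced by beta-catenin in many tissues, moved in opposite directions in SmoM2. Axin2, a scaffold of the complex that degrades beta-catenin, had 10, 10 and 8 open regions in SmoM2-Sox9cKO and 11, 10 and 11 in SmoM2, against 6, 8 and 6 in WT. Its log2 change was 0.53 (SE 0.11, limma adjusted p = 0.018) for SmoM2 against WT and 0.40 (SE 0.11, limma adjusted p = 0.069) for SmoM2-Sox9cKO against WT. The SmoM2 call rested on a narrow margin: it was lost without SmoM2 1, SmoM2 2, WT 1 or WT 3 (limma adjusted p = 0.0656, 0.0508, 0.0527 and 0.0597), with loci reaching 20 kb (0.0758) and with Y-linked intervals as a covariate (0.11), while the change stayed between 0.41 and 0.65. SmoM2-Sox9cKO against WT was called without WT 2 (limma adjusted p = 0.0432) and among loci with a mean of at least 3 regions (limma adjusted p = 0.0475).

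The Axin2 start region, chr11:108919918-108922363, was open in all 11 libraries. The 2 regions open in 3 of 3 SmoM2 and 0 of 3 WT libraries, chr11:108941654-108942357 in the gene and chr11:108984417-108985436 beyond its far end, were open in 3 of 3 SmoM2-Sox9cKO libraries as well. A 477 bp region 60860 bp beyond the gene, chr11:109011643-109012119, stood at percentile 99.8 or 99.9 of the -log10 p of each of the 11 lists, with an authors' fold enrichment of 18.14 to 23.27. It belongs to Axin2 by distance alone. No mask for artifact-prone sequence was applied here, so whether its signal reflects open chromatin was not tested.

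Nkd1, which binds Dishevelled, had 4 open regions in each SmoM2-Sox9cKO library and 2 in each SmoM2 library, against 4 in each WT library. SmoM2 stood apart from both other groups, and no count varied within a group. The log2 change was -0.97 (SE 0.12, limma adjusted p = 0.00148) for SmoM2 against WT, 0.91 (SE 0.12, limma adjusted p = 0.0152) for SmoM2-Sox9cKO against SmoM2 and -0.06 (SE 0.12, limma adjusted p = 0.754) for SmoM2-Sox9cKO against WT. The first call held under each of 21 alternatives. The second was lost with intervals of -log10 q of at least 5 (limma adjusted p = 0.119), with Y-linked intervals as a covariate (0.053), without SmoM2-Sox9cKO 3 (0.0578) and without SmoM2 1 (0.0583). That second call was also lost with a block for replicate number, although same-numbered libraries did not deviate together.

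The equal Nkd1 counts of SmoM2-Sox9cKO and WT were not the same regions throughout. The region over the lower-coordinate gene end, chr8:88520526-88522160, and chr8:88453885-88454803 were open in all 11 libraries. Of the pair of WT regions absent in SmoM2, chr8:88579646-88580507 was open in 3 of 3 SmoM2-Sox9cKO libraries. It stood there at percentiles 4.3, 10 and 7.2, against percentiles 55.5, 50.3 and 34.2 in WT. The other, chr8:88576256-88577012, was open in SmoM2-Sox9cKO 1 alone of its group, at percentile 5.5, against 7.8, 34.8 and 64.8 in WT. SmoM2-Sox9cKO 2 and 3 each had 1 region that no other library held, chr8:88540336-88540619 (percentile 4.5) and chr8:88472293-88472860 (percentile 9.1). Every SmoM2-Sox9cKO interval in a Nkd1 region that SmoM2 lacked thus stood at percentile 10 or lower of its list.

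Lef1, a DNA-binding partner of beta-catenin, had 10, 12 and 9 open regions in SmoM2-Sox9cKO and 11, 12 and 14 in SmoM2, against 9, 9 and 10 in WT. The SmoM2 and WT counts did not overlap, but the log2 change of 0.26 (SE 0.12, limma adjusted p = 0.222) did not pass the test. The region at its first start, chr3:131110008-131110688, overlaps the sequence given above. It was open in 3 of 3 libraries of each SmoM2 group and in WT 2 alone of the WT libraries. Its percentile was 47.9 in WT 2, above the 19.7 to 42.8 in SmoM2-Sox9cKO and 30.8 to 42.1 in SmoM2. The next region, chr3:131110860-131112599, was open in all 9 non-embryonic libraries. Of 3 Lef1 regions open in 3 of 3 SmoM2 and 0 of 3 WT libraries, chr3:131013959-131014934 and chr3:131219861-131220522 were open in 2 of 3 SmoM2-Sox9cKO libraries. The other, chr3:131031324-131031716, was open in none, and stood low in the SmoM2 lists (percentiles 5.7, 2.9 and 15.7).

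Region by region, 29 of the 133 family regions open in SmoM2 or WT were gained in SmoM2, that is open in 3 of 3 SmoM2 and 0 of 3 WT libraries, and 3 were lost, that is the reverse. These are 21.8% and 2.26% of the family's regions, against 7.66% and 3.45% of all regions; a single region of 3 against 3 libraries cannot go below an exact permutation p of 0.1, so no region was tested. Wif1 held 10 of the 29 gained regions, Lgr5 6, Lgr4 5, Lef1 3, Axin2 2 and Lgr6, Znrf3 and Rnf43 1 each, and the lost regions were 2 of Nkd1 and 1 of Rspo1 (5 regions in all without WT 3). Regions of 1 locus are not independent of each other. Because the members were chosen with earlier results of these data known, the shares here and below describe the family and do not test it. Of the gained regions 69.0% had their midpoint in a gene body, against 51.1% of the gained regions over all loci, while 71.8% of the family's regions and 54.2% of all regions did. Gained family regions had a median width of 934 bp, against 694 bp for all gained regions, and the family's regions open in all 9 non-embryonic libraries 1217 bp.

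In SmoM2-Sox9cKO, 15 of the 29 gained regions (51.7%) were open in 3 of 3 libraries, 8 in 2, 3 in 1 and 3 in none; over all 8637 gained regions, 44.9% were open in 3 of 3 and 13.4% in none. SmoM2-Sox9cKO 1 held 24 of the 29, SmoM2-Sox9cKO 2 held 25 and SmoM2-Sox9cKO 3 held 15. Without SmoM2-Sox9cKO 3, 23 of the 29 (79.3%) were open in both remaining libraries, against 64.0% of all gained regions. The 3 open in no SmoM2-Sox9cKO library belonged to Wif1, Lgr4 and Lef1. In the SmoM2 lists the Lgr4 and Lef1 ones stood low, at percentiles 4.1 to 17.0 and 2.9 to 15.7. The Wif1 one stood at 53.5 to 58.3. The 5 gained regions of Axin2, Lgr6, Znrf3 and Rnf43 were open in 3 of 3.

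**Figure D5:**
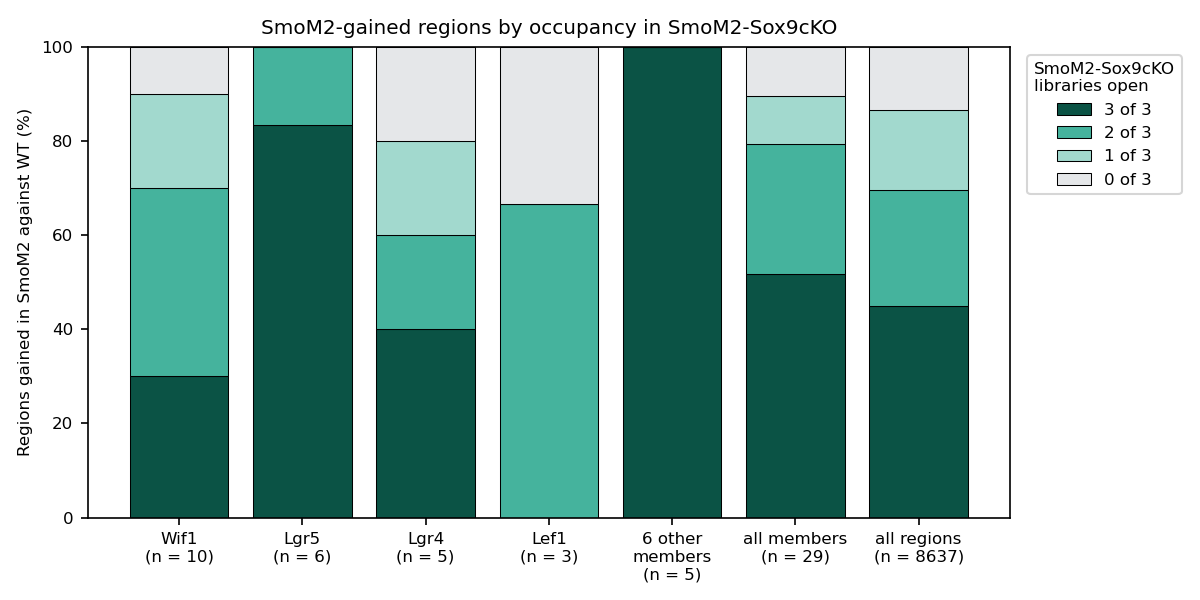
Regions gained in SmoM2 against WT, by the number of SmoM2-Sox9cKO libraries in which they were open, for the members and for all regions of the series (n, number of gained regions). Bars start at 0 and sum to 100%; 5 of 6 Lgr5 regions and 3 of 10 Wif1 regions were open in 3 of 3 SmoM2-Sox9cKO libraries.

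Between SmoM2-Sox9cKO and SmoM2 few members differed. Nkd1 was called higher and none was called lower by limma, while Wif1 alone was lower at an unadjusted p under 0.05. Over all loci 0.424% were called higher and 0.437% lower. Of 134 family regions open in either group, 3 were open in 3 of 3 SmoM2-Sox9cKO and 0 of 3 SmoM2 libraries (2.24%, against 0.784% of all regions), at Lgr6, Znrf3 and Nkd1. The reverse held for 5 (3.73%, against 1.54% of all regions), at Lgr4, Znrf3, Rnf43, Wif1 and Lef1.

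In SmoM2-Sox9cKO against WT, Lgr5, Znrf3 and Wif1 had more open regions and Rspo1 fewer. Over all loci 4.01% were called higher and 3.45% lower, and without scaling the split of calls was 511 higher and 260 lower, against 614 higher and 529 lower with it. Of 131 family regions open in either group 17 were gained (13%, against 4.85% of all regions) and 1 was lost (0.763%, against 3.06%). The lost one was the Rnf43 region chr11:87696956-87697819. Without SmoM2-Sox9cKO 3 the gained regions numbered 31, and the lost regions numbered 4 without SmoM2-Sox9cKO 1, 3 without WT 1 and 4 without WT 3. The comparisons share libraries with each other, so the calls of one are not independent of those of another.

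In the Embryo libraries 25 and 16 of the 149 regions were open (16.8% and 10.7%), while over all regions 19.6% and 11.2% were. Rnf43 had the most, with 5 and 4 open regions, and Rspo1 had none in either library. Lgr5 had 4 and 2, Lgr4 3 and 2, Axin2 3 and 2, Nkd1 3 and 2, Znrf3 3 and 1, Lef1 2 and 1, and Lgr6 and Wif1 1 each. Of the 29 regions gained in SmoM2, 0 were open in Embryo 1 and 1 in Embryo 2, the Wif1 region chr10:121055381-121056791. Embryo held 5 family regions that no other library held, chr10:115493195-115493653 and chr10:115591473-115591906 at Lgr5, chr1:135021106-135021492 at Lgr6, chr11:5437025-5437466 at Znrf3 and chr8:88488265-88488662 at Nkd1; the second Lgr5 region and the Lgr6 region were open in both Embryo libraries. Stage, gate and list length differ between Embryo and the other groups, and no test was made.

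Across the rest of the Wnt pathway, 100 of 105 listed genes could be tested, and in SmoM2 against WT 4 were higher (Wls, Fzd1, Dvl2 and Tle1) and 9 lower (Wnt7a, Ror1, Fzd2, Trabd2b, Dkk4, Sfrp1, Fgf18, Tnfrsf19 and Smoc2), near the 5.3% higher and 5.92% lower over all loci, against which the counts of the single lists are to be read too. Their median log2 change was -0.09, and that of all loci -0.12. Among Wnt ligands and their carriers 1 of 21 rose and 1 fell: Wls, which carries Wnt proteins to the cell surface, had 9, 11 and 7 open regions in SmoM2-Sox9cKO and 10, 10 and 12 in SmoM2, against 6, 6 and 5 in WT (log2 change 0.73 for SmoM2 against WT, limma adjusted p = 0.0166). Of 16 receptors 1 rose and 2 fell; Ror1, a receptor tyrosine kinase for Wnt ligands, had 13, 10 and 9 open regions in SmoM2-Sox9cKO and 10, 7 and 7 in SmoM2, against 17 in each WT library (log2 change -1.18 for SmoM2 against WT, limma adjusted p = 0.00211).

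Of 14 secreted and membrane inhibitors other than Wif1, 0 were called higher by limma in SmoM2 against WT (2 at an unadjusted p under 0.05) and 3 were called lower. Trabd2b, a membrane protein that cleaves Wnt ligands, had 17, 11 and 16 open regions in SmoM2-Sox9cKO and 5, 3 and 8 in SmoM2, against 17, 22 and 20 in WT. SmoM2 lay below both other groups without overlap. Its log2 change was -2.00 (SE 0.25, limma adjusted p = 0.00148) for SmoM2 against WT and 1.51 (SE 0.25, limma adjusted p = 0.0278) for SmoM2-Sox9cKO against SmoM2. Dkk4, a secreted inhibitor of Wnt co-receptors, had 1 in each SmoM2-Sox9cKO library and 0, 0 and 1 in SmoM2, against 2, 2 and 1 in WT.

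Of 16 other target and feedback genes 3 were lower in SmoM2 than in WT and none was higher by limma, nor at an unadjusted p under 0.05, beside 5.92% lower and 5.3% higher over all loci. Tnfrsf19, a receptor that marks stem cells of the intestine, had 7, 8 and 8 open regions in SmoM2-Sox9cKO and 6, 8 and 10 in SmoM2, against 12, 10 and 13 in WT (SmoM2 against WT, limma adjusted p = 0.0432). Among TCF factors and nuclear partners 1 of 14 was higher: Tle1, a co-repressor that binds TCF factors, had 6, 9 and 4 open regions in SmoM2-Sox9cKO and 9, 11 and 9 in SmoM2, against 3, 5 and 3 in WT. Of 17 genes of the destruction complex and Dishevelled, Dvl2 was higher, with 2 regions in each SmoM2 library and 1 in each WT library. The 2 of 3 other R-spondin genes that could be tested were not called by limma, nor at an unadjusted p under 0.05 in SmoM2 against WT.

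In SmoM2-Sox9cKO against SmoM2, 2 of the 100 were higher (Trabd2b and Fgf18) and 1 lower (Amer1), beside 0.424% and 0.437% of all loci. Against WT, SmoM2-Sox9cKO had 3 higher (Btrc, Dvl2 and Ctbp1) and 3 lower (Fzd8, Ror1 and Amer1), near the 4.01% and 3.45% of all loci. Btrc, part of the ligase that degrades beta-catenin, had 9, 8 and 12 open regions in SmoM2-Sox9cKO, against 3, 5 and 5 in WT (log2 change 1.02, limma adjusted p = 0.0133).

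The loci most like Lgr5 in log2 scaled region counts over the 9 non-embryonic libraries, by Euclidean distance, were Col14a1 (0.66), Arpp21 (0.815) and Ano4 (0.849). Col14a1 had 13, 14 and 10 open regions in SmoM2-Sox9cKO and 15, 14 and 17 in SmoM2, against 4, 4 and 3 in WT. Those most like Wif1 were Rab28 (0.503), Reln (0.981) and Ankfn1 (1.052). Rab28 had 8, 9 and 5 in SmoM2-Sox9cKO and 11, 10 and 10 in SmoM2, against 1 in each WT library, so SmoM2-Sox9cKO 3 was the lowest SmoM2-Sox9cKO library there too.

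Markers of other cells moved with some comparisons, and their part in the family's differences was not tested. Summed over 10 basal squamous markers, the open regions numbered 116 to 123 in SmoM2-Sox9cKO and 106 to 131 in SmoM2, against 97 to 106 in WT; none was called by limma in the 3 comparisons. At an unadjusted p under 0.05, 1 was higher and 1 lower in SmoM2 against WT, 1 higher and 0 lower in SmoM2-Sox9cKO against SmoM2, and 2 higher and 1 lower in SmoM2-Sox9cKO against WT. The 8 endothelial markers summed to 66 to 67 in SmoM2-Sox9cKO and 58 to 67 in SmoM2, against 52 to 59 in WT, with Emcn, Cdh5 and Pecam1 higher and Flt1 lower in SmoM2 against WT, and Emcn, Cdh5, Pecam1 and Tek higher in SmoM2-Sox9cKO against WT. Fibroblast markers summed to 25 to 30 and 23 to 24 in SmoM2-Sox9cKO and SmoM2, against 19 to 23 in WT, with Lum at 0 in all 9 libraries. Of the 6 that could be tested, Twist2 was higher in both comparisons with WT and Twist1 lower in SmoM2-Sox9cKO against WT, and the median log2 change in SmoM2 against WT was -0.37, with 1 higher and 2 lower at an unadjusted p under 0.05. Immune markers summed to 14 to 18 in either SmoM2 group, against 9 to 15 in WT; Ptprc, the pan-leukocyte marker, had 1 region in each SmoM2-Sox9cKO library and 6, 1 and 2 in SmoM2, against 0 in each WT library, and Lyz2 was at 0 in all 9. Muscle markers summed to 11 to 17 and 12 to 16 in SmoM2-Sox9cKO and SmoM2, against 16 to 20 in WT, with Tagln at 0 in all 9. Of these, Acta2 was lower in both comparisons with WT and Cnn1 in SmoM2-Sox9cKO against WT. Neural and glial markers summed to 19 to 25 in SmoM2-Sox9cKO and 17 to 20 in SmoM2, against 19 to 24 in WT, with Snap25 higher and Hand2 lower in both comparisons with WT. Columnar epithelium markers summed to 31 to 38 in SmoM2-Sox9cKO and 30 to 37 in SmoM2, against 25 to 30 in WT, and none was called by limma, nor at an unadjusted p under 0.05.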

How the data were processed

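Sorted esophageal cells were profiled by ATAC-seq, and the authors deposited 1 list of open intervals for each of 11 libraries. Per the submitters' processing notes, Trimmomatic, Bowtie2, Picard, MACS2 and deepTools were used with GRCm38 (mm10), with no version or setting stated there. Each deposited list carries the authors' score, fold enrichment (a ratio), −log10 p and −log10 q of an interval. No read counts were used, so depth is unknown, and an interval missing from a list may be closed or too shallowly covered.

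The percentile of a region is the rank of its highest −log10 p in its own list, as a percentage of the list's length. Ties take their mean rank. Regions were called gained or lost only by presence, and percentiles are given as description. Loci with a mean of at least 1 region over the 9 non-embryonic libraries were tested in 1 fit with limma 3.58.1 (R 4.3.3, trend on, robust off), on log2 of the region count plus 0.5 over the total plus 1, times 100000, with Benjamini-Hochberg adjustment over all 15326 loci at 0.05. The fit was tested on simulated data whose regions were drawn independently of each other. Changes were planted there only at loci with more regions than Nkd1 or Rspo1 had, so such loci are not covered. Embryo was left out of the tests, and single regions got no test.

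The members and gene lists were chosen with earlier results of these data known. Genes of the other lists are named where called in a comparison, and the loci most alike are the 3 nearest in Euclidean distance. Alternatives were −log10 q of at least 5, lists cut to 69026 intervals, a reach of 20 kb, covered base pairs, other pseudocounts, no scaling, other filters, 2 of 3 libraries, a replicate block, Y-linked intervals as a covariate and leaving out each library. The covariate was whether a library had any Y-linked interval. Promoters came from RefSeq (GRCm38.p6), with 8 of 10 members matched. Lgr5 and Znrf3 had no entry.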

Additional observations from a re-analysis of the deposited data

Results flagged for a closer look

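Intervals at 4 Y-linked genes, on a chromosome that no comparison used, numbered 8 in SmoM2-Sox9cKO 1 and 10 in SmoM2-Sox9cKO 2, and 9 in SmoM2 1, 9 in SmoM2 2 and 9 in SmoM2 3, each above the highest WT library, which had 5; SmoM2-Sox9cKO 3, WT 2 and WT 3 had 0. The covariate for Y-linked intervals was whether a library had any, not their number. Every SmoM2 library had some, but WT 1 alone of the WT libraries, so the covariate partly coincides with the groups. With it, limma no longer called Znrf3 and Axin2 in SmoM2 against WT or Nkd1 in SmoM2-Sox9cKO against SmoM2 (adjusted p = 0.0782, 0.11 and 0.053). Lgr5, Wif1, Nkd1 and Rspo1 were still called in SmoM2 against WT. The part of sex in these differences was not tested further.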

How the results depend on the processing

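Of 624 values of single members under an alternative, 565 kept their direction and their side of the threshold, 23 lost a call, 8 gained one and 28 changed sign; 0 of those that changed sign had been called. The cause of the changes below was not tested, except that fewer libraries or 2 of 3 libraries loosen the gain criterion by construction. Calls over all loci in SmoM2 against WT (1719) were 3145 with covered base pairs, 1112 without scaling and 736 with the Y covariate. In SmoM2-Sox9cKO against SmoM2 (132) they were 43 at −log10 q of at least 5, 311 with covered base pairs, 223 without a filter, 55 with a mean of at least 3 regions, 75 with the replicate block and 34 with the Y covariate. In SmoM2-Sox9cKO against WT (1143) they were 2388 with covered base pairs. Members called in SmoM2-Sox9cKO against SmoM2 (1) were 0 at −log10 q of at least 5, 0 with the block, 0 with the Y covariate and 2 with covered base pairs; in SmoM2-Sox9cKO against WT (4) they were 2 with lists of equal length. Regions gained or lost with 2 of 3 libraries were 22306 for SmoM2 against WT (12524), 8236 for SmoM2-Sox9cKO against SmoM2 (2515) and 18095 for SmoM2-Sox9cKO against WT (8677). Of the family's regions, those lost in SmoM2 against WT (3) were 5 with equal lists and 7 with 2 of 3. In SmoM2-Sox9cKO against SmoM2 the gained (3) were 1 at −log10 q of at least 5, 1 with equal lists and 5 with 2 of 3, and the lost (5) were 3 within 20 kb. In SmoM2-Sox9cKO against WT the gained (17) were 8 at −log10 q of at least 5 and 33 with 2 of 3, and the lost (1) were 4 at −log10 q of at least 5, 4 with equal lists and 6 with 2 of 3.

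The values that changed sign, none of them called in the comparison named, were these. At −log10 q of at least 5, Rnf43 was -0.23 in SmoM2 against WT and -0.128 in SmoM2-Sox9cKO against WT, Lef1 was 0.149 in SmoM2-Sox9cKO against SmoM2 and Lgr4 was 0.001 in SmoM2-Sox9cKO against WT. With equal lists, Lgr4 was -0.004 in SmoM2 against WT, Lef1 0.11, Rnf43 -0.054 and Rspo1 0 in SmoM2-Sox9cKO against SmoM2, and Rnf43 -0.004 in SmoM2-Sox9cKO against WT. With covered base pairs, Rnf43 was -0.131 in SmoM2 against WT, Znrf3 -0.025 in SmoM2-Sox9cKO against SmoM2, and Lgr4 0.018 and Rnf43 -0.098 in SmoM2-Sox9cKO against WT. Without scaling, Znrf3 was -0.027 and Rnf43 -0.048 in SmoM2-Sox9cKO against SmoM2 and Lgr4 0.027 in SmoM2-Sox9cKO against WT. With the Y covariate, Lgr5 was 0.098 in SmoM2-Sox9cKO against SmoM2.

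Leaving out 1 library at a time gave 1143 to 1701 called loci in SmoM2 against WT (lowest without SmoM2 1), 27 to 183 in SmoM2-Sox9cKO against SmoM2 (27 without SmoM2-Sox9cKO 3, 31 without SmoM2 1, 58 without SmoM2 2) and 758 to 1172 in SmoM2-Sox9cKO against WT (lowest without SmoM2-Sox9cKO 2). Members called were 5 to 6, 0 to 1 and 3 to 4, in the same order of comparisons; gained family regions 30 to 35, 3 to 4 and 18 to 31; lost ones 3 to 5, 5 to 7 and 1 to 4; regions gained or lost 14482 to 16624, 3468 to 5014 and 10099 to 12453. Signs changed within these ranges: Rnf43 -0.028 to 0.115 in SmoM2 against WT, -0.069 to 0.073 in SmoM2-Sox9cKO against SmoM2 and -0.005 to 0.093 in SmoM2-Sox9cKO against WT; Lgr5 -0.122 to 0.194 and Znrf3 -0.024 to 0.081 in SmoM2-Sox9cKO against SmoM2; Lef1 -0.051 to 0.136 and Lgr4 -0.091 to 0.033 in SmoM2-Sox9cKO against WT.

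Same-numbered libraries did not deviate together (correlations -0.065 to 0.08), so the samples share only a number. With the replicate block, called loci were 1685, 75 and 1040 in SmoM2 against WT, SmoM2-Sox9cKO against SmoM2 and SmoM2-Sox9cKO against WT. Under the block Nkd1 was 0.909 in SmoM2-Sox9cKO against SmoM2 (limma adjusted p = 0.0504), and Lgr6 was called in SmoM2-Sox9cKO against WT (limma adjusted p = 0.0385). Rspo1 could not be tested at −log10 q of at least 5 or with a mean of at least 3 regions.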
